A study of Mus musculus with 6 samples.

Results

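The genes described here are named for the proteins of the mitochondrial ribosome, which all of them but Mrps36 encode. They were taken as every gene of the count tables whose symbol starts with Mrpl or Mrps and a digit, which gave 78 of 32285 genes, 49 named for the large subunit (Mrpl) and 29 for the small subunit (Mrps). They were measured by droplet single-cell RNA sequencing in testes of 8-week-old wild-type C57BL/6 male mice (C57BL/6N in the study's methods). For 2 weeks the mice had received a diet either high in fat (HFD) or low in fat (LFD), with 3 libraries per diet and, by the study's methods, 3 mice per diet. The libraries are called here by the diet of their sample labels, but the names of the deposited files give the opposite diet throughout. If those names are right, every difference between the diets given below changes its sign.

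Mitochondrial ribosomes translate the few mRNAs that the mitochondrial genome still encodes, all of them for subunits of the respiratory chain and the ATP synthase. The small subunit holds the decoding site and the large subunit joins the amino acids and is anchored at the inner membrane where the new proteins are inserted. The ribosomal RNAs come from mitochondrial DNA, whereas all of the ribosomal proteins are encoded in the nucleus, made in the cytosol and imported. Some of these proteins descend from those of the bacterial ribosome, and others have no bacterial counterpart. During spermatogenesis the diploid spermatogonia enter meiosis as spermatocytes, divide into haploid round spermatids and elongate, and the mitochondria change their shape and position on the way.

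Each library counted RNA molecules, captured near their 3′ end, by a random tag read with each of them (a unique molecular identifier, UMI), so 1 UMI stands for 1 molecule whatever the length of the gene. The 6 libraries held 48939 barcodes (droplets taken as cells) and 39196921 to 95845514 UMIs. Any pair of libraries shared 12 to 28 barcode sequences. Barcodes with at least 3000 UMIs were placed in 10 classes by marker genes, none of them a mitochondrial ribosomal protein gene, and 10501 barcodes that carried 60.6% of all UMIs received a class. The germ line classes are spermatogonia (823 barcodes), early prophase spermatocytes (865), pachytene spermatocytes (1575), late spermatocytes (903), early round spermatids (320), later round spermatids (2773) and elongating spermatids (2714). The others are Sertoli cells (241), macrophages (176) and a joint class of Leydig, peritubular and stromal cells (111). Markers that were not used in the gate peaked in their own class for 5 of 6 spermatogonial, 6 of 6 early prophase and 8 of 8 elongating spermatid genes. They did so for only 1 of 6 pachytene, 2 of 6 late spermatocyte, 1 of 5 early round and 2 of 5 later round spermatid genes, so the names of the middle classes stand for the genes that gated them. Depth also varied within a class. The median UMI count of pachytene-gated barcodes was 39492.5 to 47388 in both replicate 1 libraries and HFD replicate 2, but 5884 to 10332 in the other 3 libraries. That of late spermatocytes was 5496 in LFD replicate 2 and 21462 to 31548 in the other libraries. The replicate 1 libraries of both diets also had 0.065 and 0.083 CPM of haemoglobin transcripts, against 30.6 to 99.8 CPM in the other 4 libraries.

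Levels below are CPM, the UMIs of a gene per 1000000 UMIs of the same library and class. They are shares of a cell's RNA, and a protamine mRNA that fills an elongating spermatid lowers every other share. Transcripts of other cell types were also counted in the classes, and the elongating spermatid mRNA Prm1 stood at 71632 CPM in elongating spermatids and still at 2381 CPM in spermatogonia and 9608 CPM in Sertoli cells.

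The promoters of 4 members with different courses through the germ line, chosen as examples, are printed here, as RefSeq gives them for GRCm38.p6, from 250 bases before to 50 bases after the start of the gene. Mrps36 peaked in elongating spermatids, Mrps12 fell and came back, Mrps24 was nearly lost by the late spermatocytes and Mrpl51 was the most abundant member. Capitals mark 2 motifs, searched on both strands: CCGGAAG, a core bound by ETS factors such as GABPA, and AAGATGGC, a core bound by YY1 (GCCATCTT on the other strand). Neither they nor the core of nuclear respiratory factor NRF1 (GCGCATG) or the cAMP response element (TGACGTCA) occurred in the Mrps36 window. The GC box GGGCGG, which is not marked, did occur there.
Mrps36, chr13:100744610-100744909, minus strand: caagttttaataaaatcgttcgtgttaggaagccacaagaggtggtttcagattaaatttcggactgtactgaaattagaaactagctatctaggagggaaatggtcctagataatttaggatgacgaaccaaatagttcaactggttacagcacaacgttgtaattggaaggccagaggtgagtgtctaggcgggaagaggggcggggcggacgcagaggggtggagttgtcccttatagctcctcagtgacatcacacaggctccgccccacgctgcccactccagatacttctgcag
Mrps12, chr7:28741772-28742071, minus strand: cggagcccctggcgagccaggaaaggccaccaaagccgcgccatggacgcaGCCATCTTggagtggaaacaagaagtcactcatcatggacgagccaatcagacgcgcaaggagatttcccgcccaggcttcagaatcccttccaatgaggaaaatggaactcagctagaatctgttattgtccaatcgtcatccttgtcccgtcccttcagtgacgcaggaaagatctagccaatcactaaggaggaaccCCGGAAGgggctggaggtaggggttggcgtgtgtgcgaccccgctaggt
Mrps24, chr11:5707652-5707951, minus strand: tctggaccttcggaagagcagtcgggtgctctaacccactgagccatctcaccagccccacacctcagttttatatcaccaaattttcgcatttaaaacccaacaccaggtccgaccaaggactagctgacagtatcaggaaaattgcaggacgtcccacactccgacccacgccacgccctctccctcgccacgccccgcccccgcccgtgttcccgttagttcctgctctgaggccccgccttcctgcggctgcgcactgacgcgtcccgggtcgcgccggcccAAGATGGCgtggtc
Mrpl51, chr6:125191950-125192249, plus strand: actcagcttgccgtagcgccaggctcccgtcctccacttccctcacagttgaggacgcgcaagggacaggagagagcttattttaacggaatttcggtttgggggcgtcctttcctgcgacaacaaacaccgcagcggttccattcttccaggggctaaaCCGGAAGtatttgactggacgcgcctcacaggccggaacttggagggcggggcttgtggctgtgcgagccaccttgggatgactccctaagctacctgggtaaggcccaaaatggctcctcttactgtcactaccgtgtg

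RefSeq held a promoter for 69 of the 78 members. CCGGAAG stood in 26 of the 69 (37.7%), against 9.93% of the 27025 genes with a promoter. AAGATGGC stood in 12 of the 69 (17.4%), against 3.19% of all. GCGCATG stood in 8 (11.6% against 4.41%), TGACGTCA in 2 (2.9% against 2.03%) and the GC box GGGCGG in 34 (49.3% against 38.2%). A match is a run of letters and says nothing of whether a factor is bound there. In GENCODE vM21 all 78 members are protein-coding genes, on 17 chromosomes, and 13 of them overlap another gene on the same strand. GENCODE starts Mrps24 at base 5715680 and Mrpl51 at base 125191801, outside the RefSeq windows printed above. Mrps36 has 3 annotated pseudogenes of its name and Mrpl23 and Mrpl48 have 1 each, so reads could be shared with these copies and the counts of the 3 genes are less certain.

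Mitochondrial ribosomal protein transcripts made up the largest share of RNA in spermatogonia and the smallest in elongating spermatids. In spermatogonia the 78 genes summed to 7802 CPM in the lowest library, a median of 8558 and 9503 in the highest (mean 8654 ± 620, SD, n = 6). Early prophase spermatocytes had 7621 ± 582 and pachytene spermatocytes 8329 ± 425 CPM, ranges that overlapped that of the spermatogonia, although within each of the 6 libraries the pachytene sum was the lower, at 0.93 to 1.00 times the spermatogonial one. Late spermatocytes followed with 6817 ± 303 CPM, early round spermatids with 6578 ± 224 and later round spermatids with 5250 ± 137 CPM. The late spermatocytes and the early round spermatids overlapped each other, whereas all 6 libraries of the later round spermatids (highest 5432 CPM) lay below all 6 of the early round spermatids (lowest 6210 CPM).

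Elongating spermatids had 2453 CPM in the lowest library, a median of 2788 and 5547 in the highest, which was HFD replicate 2. The other 5 libraries reached at most 3089 CPM. Without HFD replicate 2 the class mean was 2753 CPM in place of 3218 ± 1161. The members summed to 0.36 to 0.89 times their early round level within a library. That library's elongating-gated barcodes stood apart in other ways too. Their median depth was 5179 UMIs, against 10898 to 16110.5 in the other libraries. Their 4 gating transcripts, Prm1, Prm2, Tnp1 and Tnp2, summed to 109836 CPM against 169200 to 224307 CPM, and all 8 further elongating markers summed to 11565 CPM against 16098 to 19061 CPM. Each of the 7 gating markers of pachytene spermatocytes was highest in that library (sum 268 CPM against 38.3 to 117 CPM), as were 7 of 8 of late spermatocytes (430 CPM against 88.5 to 186 CPM). None of the pachytene and late spermatocyte markers was at 0 in every library. The part of these in the members' level was not tested.

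Among somatic classes, Sertoli cells had 4460, 6118, 6360 and 8609 CPM in the 4 libraries with at least 20 barcodes (mean 6387 ± 1705, SD, n = 4), the widest spread of any class. In the same order of libraries the mitochondrially encoded mRNAs took 300927, 138648, 99700 and 43831 CPM of the Sertoli UMIs. The members' sum was thus lower where these mRNAs took more of the total, and their part was not tested. The macrophages had 4011 to 6092 CPM in 5 libraries, and the Leydig, peritubular and stromal class 4986 and 5625 CPM in 2. The somatic classes overlapped each other and the later round spermatids.

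**Figure D1:**
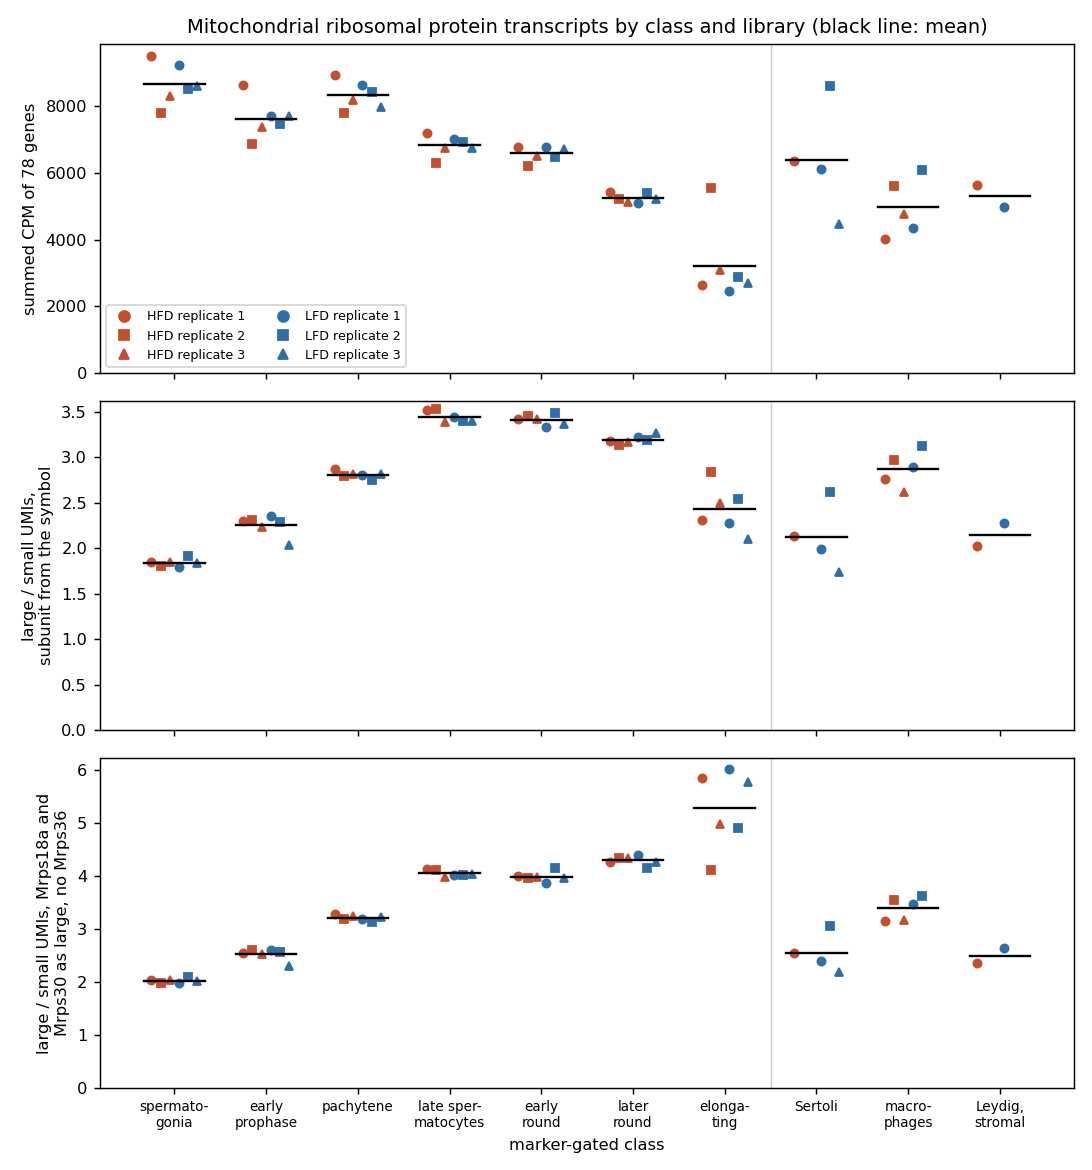
Summed CPM of the 78 genes (top), ratio of Mrpl to Mrps UMIs (middle) and the same ratio with Mrps18a and Mrps30 counted as large and Mrps36 left out (bottom), by marker-gated class on the x axis; each point is 1 library and the black line their mean. The sum falls from 8654 CPM in spermatogonia to 3218 CPM in elongating spermatids, where HFD replicate 2 lies at 5547 CPM, and the ratios of the middle and bottom panels part in the later round and elongating spermatids.

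The 80 cytosolic ribosomal protein genes summed to 145636 ± 16805 CPM in spermatogonia and 71048 ± 7243 CPM in pachytene spermatocytes, where the mitochondrial set went from 8654 to 8329 CPM. The 13 mitochondrially encoded mRNAs stood at 67706 ± 9483 CPM in spermatogonia, 39209 ± 12865 in pachytene spermatocytes, 10439 ± 1337 in early round spermatids and 1674 ± 337 CPM in later round spermatids. Between early and later round spermatids the mitochondrial mRNAs went from 9258 to 12866 CPM down to 1300 to 2225 CPM, without overlap, and the mitochondrial ribosomal protein transcripts from a mean of 6578 to 5250 CPM. These sums were not tested, because the set was chosen with earlier results known.

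The large and the small subunit took different courses. The Mrpl genes gave 1.84 ± 0.04 times as many UMIs as the Mrps genes in spermatogonia (1.80 to 1.91 over the 6 libraries). The ratio was 2.25 ± 0.11 in early prophase, 2.81 ± 0.04 in pachytene and 3.44 ± 0.06 in late spermatocytes, each class clear of the one before it. It stayed at 3.41 ± 0.06 in early round spermatids, overlapping the late spermatocytes, and was 3.19 ± 0.05 in later round and 2.43 ± 0.26 in elongating spermatids. From spermatogonia to pachytene spermatocytes the summed CPM of the large subunit was 1.06 to 1.14 times its earlier level in the 6 libraries, and that of the small subunit 0.69 to 0.77 times. These sums and ratios carry no test.

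The decline of the ratio in spermatids depended on which genes were counted. Mrps36 carries a ribosomal symbol but its product is known as a subunit that recruits the E3 enzyme of the 2-oxoglutarate dehydrogenase complex. It gave 0.902% of the Mrps UMIs in early round, 15.0% in later round and 45.3% in elongating spermatids. Mrps18a and Mrps30 encode proteins that structures of the mammalian ribosome place in the large subunit. With this pair moved and Mrps36 left out, the ratio was 2.02 ± 0.05 in spermatogonia, 3.98 ± 0.09 in early round, 4.29 ± 0.08 in later round and 5.27 ± 0.74 in elongating spermatids, and it rose where the ratio by symbol fell. The order from spermatogonia to late spermatocytes was the same by both counts. In elongating spermatids HFD replicate 2 had the lowest value, 4.12, below all later round libraries (4.15 to 4.40), and the other 5 libraries lay above them (lowest 4.89).

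**Figure D2:**
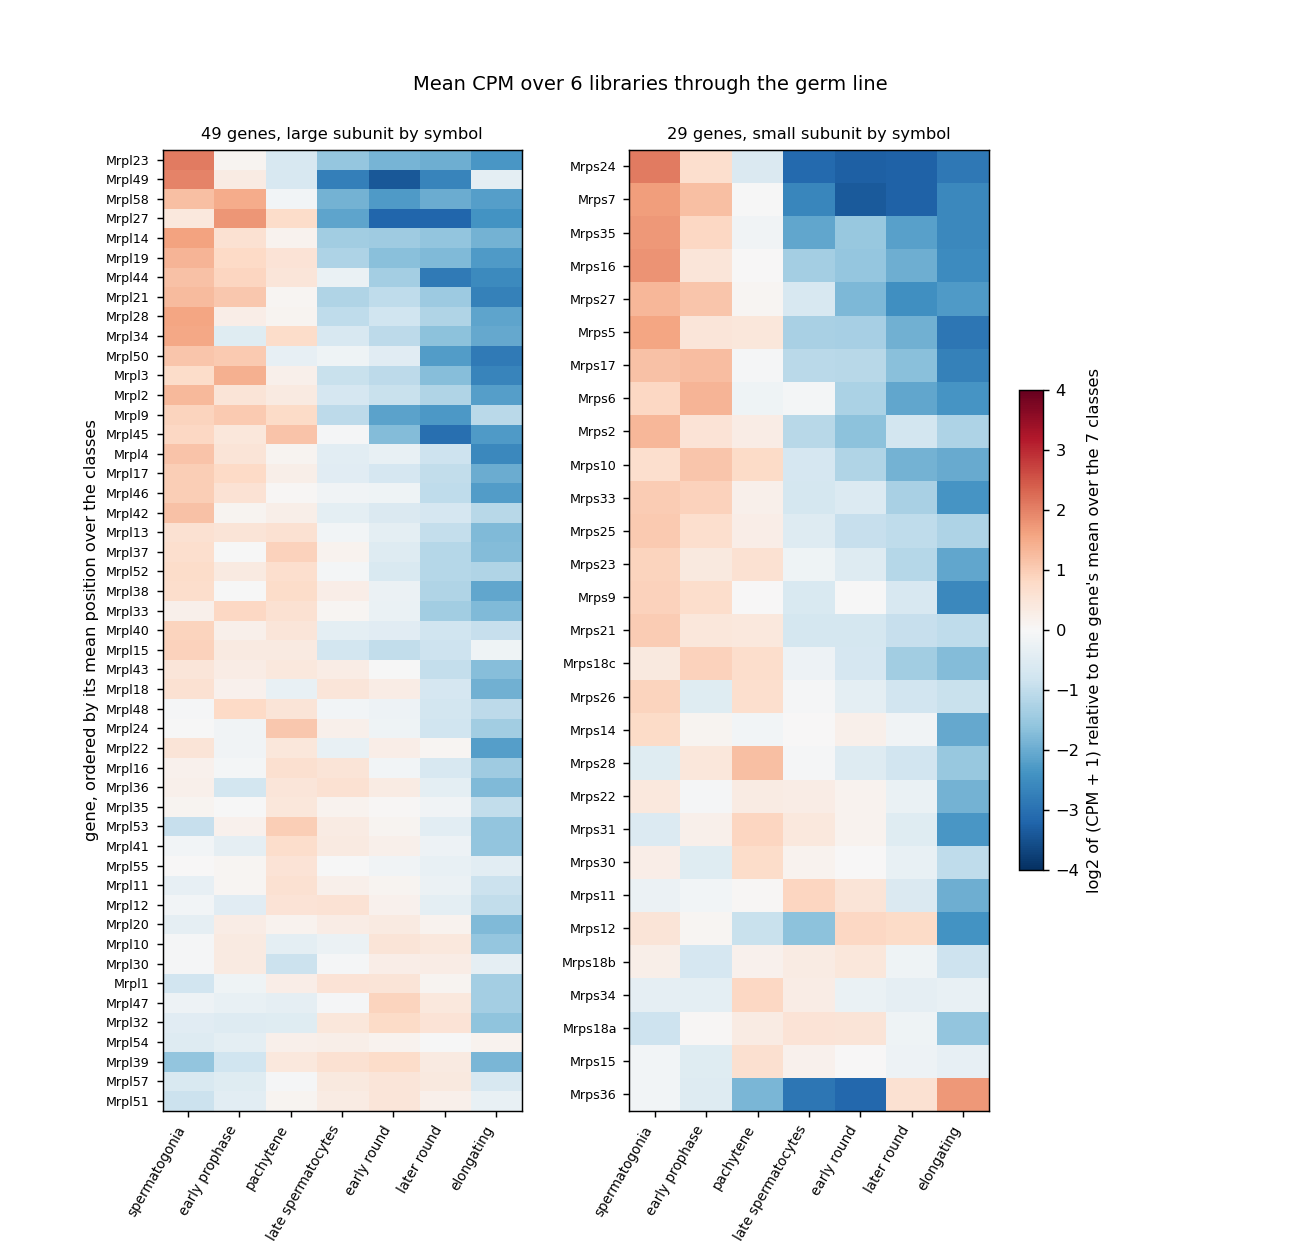
Mean CPM of each of the 78 genes over 6 libraries in the 7 germ line classes (x axis), as log2 of CPM + 1 relative to the gene's own mean over the classes (colour), with Mrpl genes left and Mrps genes right, ordered by where along the classes their transcripts lie. Of the 78 genes, 35 peak in spermatogonia and 61 are lowest in elongating spermatids, whereas Mrps36 at the bottom right is highest there (405 CPM).

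Single members differed widely. Of the 78 genes, 35 had their highest mean CPM in spermatogonia, 11 in early prophase, 16 in pachytene spermatocytes, 6 in late spermatocytes and 9 in early round spermatids. Mrps36 was the only one to peak in elongating spermatids, where 61 of the members were lowest. The level in the highest germ line class was a median of 6.88 times that in the lowest, from 1.71 times for Mrpl54 to 76.8 times for Mrpl49. The most abundant members over all classes were Mrpl51 (mean 387 CPM), Mrpl20 (323 CPM) and Mrpl54 (293 CPM), all of the large subunit. Mrpl20 encodes a protein that binds the large ribosomal RNA early in assembly in bacteria, and Mrpl51 and Mrpl54 have no bacterial counterpart. The least abundant were Mrps2 (8.63 CPM), Mrps27 (9.16 CPM) and Mrpl19 (17.8 CPM).

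Mrpl51 had 202 to 272 CPM in spermatogonia (median 247), 439 to 529 in pachytene spermatocytes (median 462), 564 to 654 in early round spermatids (median 627) and 297 to 514 CPM in elongating spermatids (median 318). The 3 earlier of these classes did not overlap each other. Mrpl54 moved least, with 165 to 272 CPM in spermatogonia (median 229), 275 to 430 in early round spermatids (median 372) and 309 to 374 CPM in elongating spermatids (median 364). Mrps2, a small subunit protein with a bacterial counterpart, had 17.0 to 29.7 CPM in spermatogonia (median 22.1) and 0 to 3.67 CPM in early round spermatids (median 2.34), from 25 UMIs in all.

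Stages were compared within libraries by edgeR's quasi-likelihood test on UMIs summed per library and class, with the library as a block and p-values adjusted by the Benjamini-Hochberg method over all genes tested. A call is an adjusted p under 0.05. Between such different cells most of the genes tested were called, so the counts of members are read against that background. The default scaling (TMM) and scaling by total UMIs also gave different zero points. They moved the median change of all genes from -0.11 to -0.56 on the log2 scale between spermatogonia and pachytene spermatocytes, from -0.06 to -0.26 between pachytene and early round, from -0.19 to -1.33 between early round and elongating spermatids and from -0.03 to -0.32 between spermatogonia and Sertoli cells. Fold changes below are under TMM, and the median of all genes is given as their reference.

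Under TMM, more genes of the large subunit rose than fell from spermatogonia to pachytene spermatocytes. Of the small subunit, slightly more fell than rose under the same scaling. Of 78 members tested, 39 rose and 32 fell, 91.0% in all, beside 88.2% of 11660 genes called (42.3% higher and 45.9% lower). Scaled by total UMIs, 28 members rose and 39 fell, beside 34.5% of all genes called higher and 55.2% lower. The median change was 0.23 for the members and -0.11 for all genes, a distance of 0.34 that was 0.35 under the other scaling. The CPM of the classes did not overlap for 52 members, beside 72.4% of all genes. Among Mrpl genes 28 of 49 rose and 17 fell (median 0.36), and among Mrps genes 11 of 29 rose and 15 fell (median -0.34). Scaled by total UMIs the medians were -0.08 for Mrpl and -0.78 for Mrps genes, beside -0.56 for all genes.

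Mrpl39, a mitochondria-specific protein of the large subunit, had 44.4 to 72.4 CPM in spermatogonia (median 58.0) and 215 to 253 CPM in pachytene spermatocytes (median 235). The classes were far apart in every library, and it had the largest rise of all members (log2 change 2.45 ± 0.12, SE, adjusted p = 7.7e-11 by edgeR). Mrpl53 followed (2.35 ± 0.12, adjusted p = 9.7e-11), from 85.5 ± 11.6 to 321 ± 31.2 CPM (SD, n = 6). The other largest rises were all of genes named for the small subunit. Mrps28, the counterpart of bacterial protein bS1, went from 39.4 ± 6.51 to 130 ± 6.58 CPM (2.16 ± 0.12, edgeR adjusted p = 2.25e-10). Mrps31 rose by 1.89 ± 0.10, Mrps34 by 1.65 ± 0.13 and Mrps18a by 1.62 ± 0.12 on the log2 scale, each higher in 6 of 6 libraries. Mrps34 overlaps Nme3 on the same strand, and reads of the overlap may be shared.

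Among the members that fell, Mrps24, the counterpart of uS3 at the mRNA entry of the small subunit, had 196 to 268 CPM in spermatogonia (median 232) and 28.8 to 44.3 CPM in pachytene spermatocytes (median 35.2). It fell by 2.25 ± 0.11 on the log2 scale (edgeR adjusted p = 1.01e-10), and the classes did not overlap. It overlaps Urgcp on the same strand. Mrpl23, at the exit of the polypeptide tunnel, fell from 146 ± 35.1 to 21.1 ± 2.73 CPM (log2 change -2.33 ± 0.11, edgeR adjusted p = 1.01e-10). Mrpl49 had 72.1 to 101 CPM in spermatogonia (median 87.6) and 8.03 to 15.0 CPM in pachytene spermatocytes (log2 change -2.23 ± 0.13). Mrps35 (-1.49), Mrps16 (-1.35) and Mrps36 (-1.34) completed the 6 largest falls, each lower in 6 of 6 libraries.

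Most members were lower in early round spermatids than in pachytene spermatocytes, a span that takes in the late spermatocytes, where the sum was already 0.80 to 0.85 times the pachytene one within a library. From pachytene to early round spermatids 55 of 78 members fell and 16 rose, beside 45.0% of 10215 genes called lower and 41.8% called higher (86.9% in all). Scaled by total UMIs, 59 fell and 15 rose, beside 50.1% of all genes lower and 37.3% higher. The median change was -0.75 for the members and -0.06 for all genes. The CPM of the classes did not overlap for 63 members, beside 70.0% of all genes. Both subunits took part, with 33 of 49 Mrpl genes (median -0.62) and 22 of 29 Mrps genes (median -0.96) lower.

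Mrpl27, a protein near the peptidyl transferase centre, had 26.9 to 38.7 CPM in pachytene spermatocytes (median 32.9) and 0 to 2.69 CPM in early round spermatids (median 1.36), where all libraries together held 13 UMIs. Its fall was the largest of the members (log2 change -4.53 ± 0.26, edgeR adjusted p = 1.3e-09). Mrps7, which binds the small ribosomal RNA, went from 38.3 to 47.0 CPM (median 42.7) to 0.481 to 5.25 CPM (median 3.10), with a log2 change of -3.43 ± 0.25. Mrpl49 (-3.21 ± 0.37) had 13 UMIs left in early round spermatids, Mrpl9 fell by 3.06 ± 0.21, and Mrps24 fell by another 2.76 ± 0.18. Mrpl45, which ties the tunnel exit to the inner membrane, fell by 2.97 ± 0.16 from 80.2 ± 10.7 to 10.0 ± 6.03 CPM. In early round spermatids LFD replicate 2 had 21.5 CPM of Mrpl45 and the other 5 libraries 5.72 to 11.5 CPM, all below the pachytene level.

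A smaller group rose at the same step. Mrps12, the decoding-site protein known in bacteria from streptomycin resistance, had 32.1 to 46.1 CPM in pachytene spermatocytes (median 40.3) and 118 to 143 CPM in early round spermatids (median 134). The rise was 1.96 ± 0.09 on the log2 scale (edgeR adjusted p = 1.07e-10). Its level had declined before, from 105.8 ± 19.9 CPM in spermatogonia to 23.0 ± 6.98 CPM in late spermatocytes, and it dropped again to 13.4 ± 11.4 CPM in elongating spermatids. The next 4 were proteins of the large subunit, Mrpl32 (1.49 ± 0.07), whose maturation is linked to ribosome assembly, Mrpl47 (1.45 ± 0.07), Mrpl30 (1.32 ± 0.06) and the stalk protein Mrpl10 (1.14 ± 0.10). Mrpl18, which contacts the central protuberance, rose by 0.80 ± 0.06. All of these were higher in early round spermatids in 6 of 6 libraries.

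**Figure D3:**
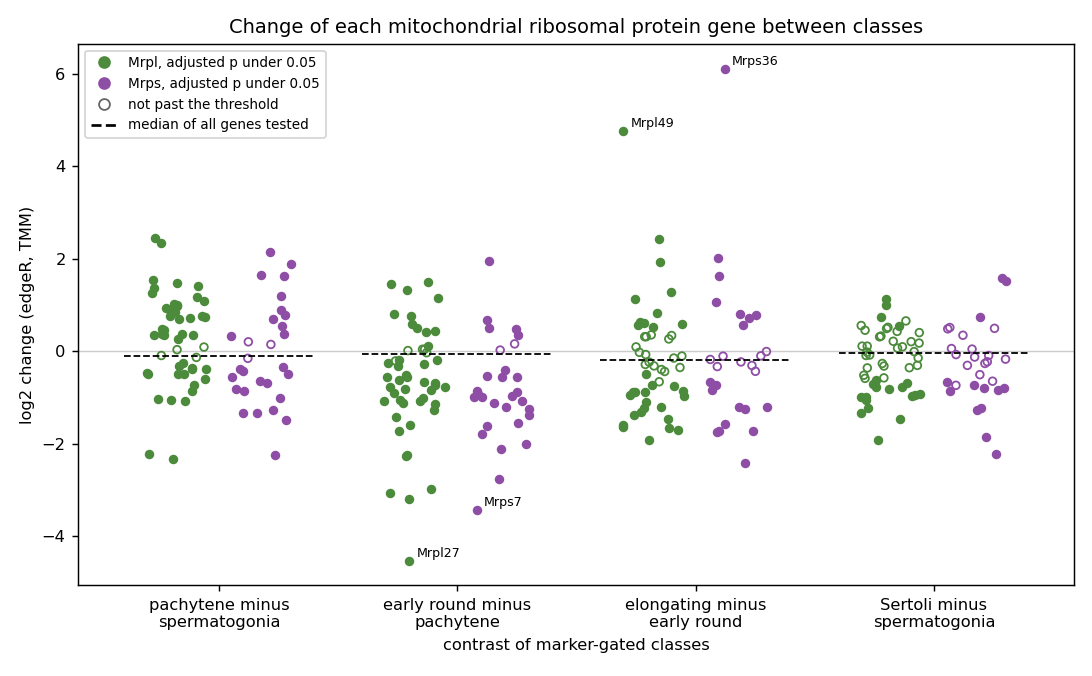
Log2 change of each member (edgeR, TMM scaling) in 4 contrasts of classes on the x axis; filled points pass an adjusted p of 0.05, green for Mrpl and purple for Mrps, and the dashed line is the median of all genes tested. The early round minus pachytene changes lie mostly below the dashed line, with Mrpl27 at -4.53, and Mrps36 and Mrpl49 rise by 6.12 and 4.76 in elongating spermatids.

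Most members held a smaller share of the UMIs in elongating spermatids, and so did most genes tested. Of 75 members tested, 19 were called higher and 31 lower than in early round spermatids, beside 36.6% higher and 41.9% lower of 9763 genes (78.5% in all). Scaled by total UMIs, 5 were higher and 59 lower, beside 22.6% of all genes higher and 66.2% lower. The median change was -0.32 for the members and -0.19 for all genes. Mrps2, Mrps27 and Mrpl27 were under the count filter, with 1.04 to 3.06 CPM in elongating spermatids. The CPM of the classes did not overlap for 39 members, beside 71.2% of all genes. Without both replicate 1 libraries 13 members were higher and 20 lower, beside 3159 and 3317 of 10001 genes. In the libraries labelled HFD alone 12 were higher and 16 lower, beside 3082 and 2855 of 10834 genes.

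Mrps36 had 7.65 to 21.5 CPM in early round spermatids (median 11.9), 150 to 229 CPM in later round spermatids (median 191) and 317 to 517 CPM in elongating spermatids (median 410). The 3 ranges did not overlap, and HFD replicate 2 was the lowest of the elongating libraries. The change from early round to elongating spermatids was 6.12 ± 0.36 on the log2 scale (edgeR adjusted p = 1.78e-07) and 4.97 under total UMI scaling. Spermatogonia had 94.5 to 124 CPM, and the early round spermatids had the lowest mean of the germ line classes (12.9 CPM). Mrpl49 also came back, from 0 to 2.39 CPM in early round to 13.0 to 19.6 CPM in elongating spermatids (log2 change 4.76 ± 0.41, edgeR adjusted p = 1.25e-06). Mrpl15, a core protein of the large subunit, was higher at 71.4 ± 14.8 against 41.0 ± 6.1 CPM (1.92 ± 0.17). Mrpl9, Mrps7 and Mrps24 were called higher as well, with 13.3 against 5.83, 6.35 against 3.24 and 6.58 against 4.72 CPM. The CPM ranges of the classes overlapped for these 3 genes, Mrps24 was higher in 3 of 6 libraries by CPM, and under total UMI scaling Mrps24 was not called (log2 change 0.49, adjusted p = 0.17).

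The largest falls into elongating spermatids were of Mrps12 (log2 change -2.41 ± 0.23, edgeR adjusted p = 3.37e-06), Mrpl50 (-1.92), Mrps31 (-1.75), Mrps11 (-1.74), Mrps9 (-1.72) and Mrpl39 (-1.71). Mrpl39 had 256 to 312 CPM in early round spermatids (median 286) and 22.5 to 122 CPM in elongating spermatids (median 37.4). HFD replicate 2 gave the 122 CPM and the other 5 libraries at most 38.9 CPM. The same library was the highest for Mrps12 (36.4 CPM, the others 6.75 to 12.6 CPM), Mrps31 and Mrps11. Without that library 22 members were higher and 37 lower, beside 4008 and 4141 of 9740 genes. Mrpl54 was called higher in elongating spermatids under TMM (log2 change 1.14), but not under total UMI scaling (-0.00), with 351 against 354 CPM.

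**Figure D4:**
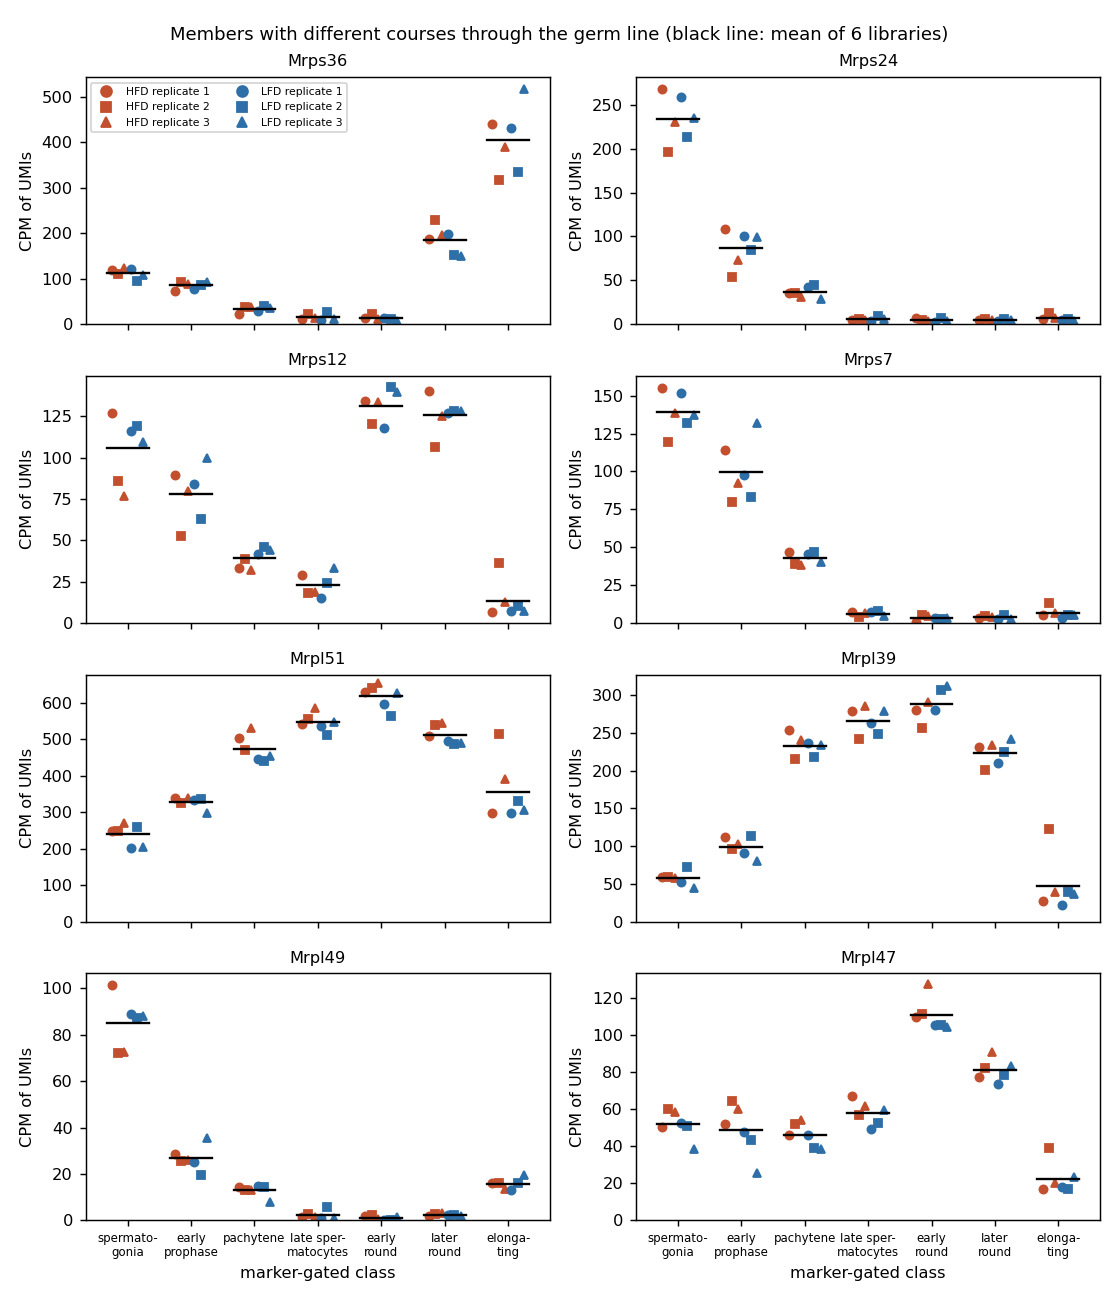
CPM of 8 members in the 7 germ line classes; each point is 1 library (colour for the labelled diet, shape for the replicate) and the black line the mean of 6. Mrps24 and Mrps7 fade by the late spermatocytes, Mrps12 dips to 23.0 CPM in late spermatocytes and returns to 131.5 CPM in early round spermatids, Mrpl51 and Mrpl39 peak in early round spermatids, and Mrps36 climbs to 405 CPM in elongating spermatids.

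The 3 paralogs of bacterial protein bS18 were not transcribed in parallel. Mrps18c, which sits where bS18 does, was highest in early prophase (157 ± 22.1 CPM) and fell from 137 ± 14.5 in pachytene to 52.1 ± 2.25 CPM in early round spermatids (log2 change -1.21 ± 0.07, edgeR adjusted p = 1.99e-09). Mrps18a rose from 43.6 ± 12.3 CPM in spermatogonia to 111 ± 17.8 CPM in early round spermatids and was called higher at both steps. Mrps18b, a small subunit protein at another place, dipped to 47.9 ± 7.73 CPM in early prophase and had 106 ± 15.7 CPM in early round spermatids. It was called higher in pachytene spermatocytes (log2 change 0.37 ± 0.09) although its CPM was lower there in 6 of 6 libraries, and under total UMI scaling the call was lost (log2 change -0.07, edgeR adjusted p = 0.366). Mrps30, the other large subunit protein with a small subunit name, was highest in pachytene spermatocytes (82.2 ± 10.2 CPM) and fell by 0.55 ± 0.09 on the log2 scale in early round spermatids.

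Sertoli cells, the somatic cells that nurse the germ cells, were compared with spermatogonia in the 4 libraries with at least 20 barcodes of each. Of 78 members, 7 were higher and 26 lower, beside 34.5% higher and 32.5% lower of 11172 genes (67.1% in all). Scaled by total UMIs, 4 were higher and 37 lower, beside 28.9% of all genes higher and 40.1% lower. The median change was -0.25 for the members and -0.03 for all genes. The CPM of the classes did not overlap for 39 members, beside 55.7% of all genes. The count of lower members changed with the libraries used, and so did that of all genes, 3635 of 11172 in the full fit. Leaving out HFD replicate 1 gave 17 lower members, beside 2966 of 11244 genes. Leaving out LFD replicate 2 gave 37, beside 3824 of 10468 genes. Leaving out both replicate 1 libraries gave 4, beside 1857 of 11450 genes.

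Mrps18a had 113 to 135 CPM in Sertoli cells (4 libraries) against 51.2 ± 1.68 CPM in the spermatogonia of the same libraries (log2 change 1.58 ± 0.23, edgeR adjusted p = 1.34e-06). Mrps6 (1.52 ± 0.24), Mrpl53 (1.13 ± 0.22), Mrpl39 (0.99 ± 0.26), Mrpl51 (0.73 ± 0.22) and Mrpl57 (0.55 ± 0.22) were also called higher. Mrpl51 and Mrpl57 were not called under total UMI scaling or by DESeq2, and Mrps6 overlaps Slc5a3 on the same strand. The lower members were led by Mrps16, with 47.8 ± 25.7 against 275 ± 30.9 CPM (-2.23 ± 0.28), Mrpl23 (-1.92), Mrps24 (-1.85), Mrpl28 (-1.47), Mrpl42 (-1.33) and Mrps35 (-1.27), each lower in 4 of 4 libraries. The Sertoli-gated barcodes also held spermatid transcripts, with Prm1 at 6353 to 21306 CPM over the 6 libraries, and its part was not tested. Their mitochondrially encoded mRNAs took 43831 to 300927 CPM in the 4 libraries compared, and the part of these was not tested either.

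The other genes of mitochondrial translation were followed as a list of 66, of which 64 were in the tables. Into pachytene spermatocytes 28 of the 61 tested rose and 24 fell (median change 0.08), beside 42.3% and 45.9% of all genes (median -0.11). Into early round spermatids 10 of 52 rose and 35 fell (median -0.99), beside 41.8% and 45.0% (median -0.06). Into elongating spermatids 8 of 39 rose and 19 fell (median -0.57), beside 36.6% and 41.9% (median -0.19). In Sertoli cells 5 of 58 were higher and 17 lower than in spermatogonia (median -0.20), beside 34.5% and 32.5% (median -0.03). All of these are under TMM. The 5 ribosomal proteins under other symbols, such as Dap3, had 4 rises into pachytene spermatocytes and 5 falls into early round spermatids. By smallest p, Mpv17l2, a ribosome assembly factor, fell from 30.2 to 2.95 CPM and Mtrf1l, a release factor, from 23.2 to 0.501 CPM into pachytene spermatocytes. The initiation factor Mtif2 fell from 65.1 to 10.7 CPM and the helicase Ddx28 from 24.1 to 1.77 CPM into early round spermatids. In elongating spermatids Aars2, the mitochondrial alanyl-tRNA synthetase, was at 71.3 against 10.8 CPM and Gatc, of the amidotransferase that makes glutaminyl-tRNA, at 41.7 against 14.7 CPM. In Sertoli cells Nars2 was lower than in spermatogonia (1.94 against 17.9 CPM), as was the mRNA stability factor Lrpprc (28.0 against 76.8 CPM).

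The 80 cytosolic ribosomal protein genes gave other counts in the same fits. Of them 61 fell and 7 rose into pachytene spermatocytes (median change -0.67), beside 45.9% of all genes lower and 42.3% higher. Of 75 tested 54 rose and 6 fell into elongating spermatids (median 0.70 under TMM), beside 36.6% of all genes higher and 41.9% lower. As a share of UMIs their mean sum was instead lower, 42330 CPM against 55640 CPM in early round spermatids. Only in HFD replicate 2 was it higher, 56932 against 53058 CPM. The 13 mitochondrially encoded mRNAs fell without exception into early round spermatids (median -1.98), beside 45.0% of all genes lower.

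Diet was compared between the 3 libraries labelled HFD and the 3 labelled LFD, first in sums over all barcodes. In such sums fewer cells of a type and less RNA per cell cannot be told apart. The members summed to 5998, 6265 and 6227 CPM under HFD and 5699, 6342 and 5630 CPM under LFD. The diets overlapped, with means of 6164 ± 144 and 5890 ± 393 CPM, and the difference was 299 CPM between the replicate 1 libraries and 260 CPM among the other 4. The ratio of large to small subunit was 2.92 in both diets (SD 0.04 and 0.03, n = 3). In later round spermatids it was 3.16 ± 0.03 under HFD and 3.23 ± 0.04 under LFD, without overlap, and in the other germ line classes the diets overlapped. With Mrps18a and Mrps30 counted as large and Mrps36 left out, the later round ratio was 4.26, 4.34 and 4.33 under HFD and 4.40, 4.15 and 4.27 under LFD, so the diets overlapped and the higher mean was that of HFD (4.31 against 4.27).

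No member was called for diet in the whole testis by edgeR's quasi-likelihood test (0 of 78, beside 0.0% of 20727 genes), and DESeq2 called none either. At an unadjusted p under 0.05 there were 5 members by edgeR, beside 2.27% of all genes, and 4 by DESeq2, beside 444 of 28384 genes. The smallest p-values were those of Mrpl13, Mrps30 and Mrps33. Mrpl13, a core protein of the large subunit, had 72.0, 85.2 and 88.5 CPM under HFD and 63.4, 70.5 and 56.9 CPM under LFD. All HFD values lay above all LFD values (log2 change 0.42 ± 0.15, edgeR adjusted p = 0.986). Mrps30 (0.37 ± 0.15) and Mrps33 (0.39 ± 0.16) overlapped between the diets and had the same adjusted p. Without LFD replicate 3 the changes were 0.27 for Mrpl13, 0.24 for Mrps30 and 0.22 for Mrps33. The CPM of the diets did not overlap for 2 of the 78 members, beside 6.68% of all genes.

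No member was called within any of the 7 germ line classes by edgeR or DESeq2, again beside 0.0% of the genes tested. In the early prophase spermatocytes 3 members had an unadjusted p under 0.05 by edgeR, in pachytene spermatocytes 3, in early round spermatids 4, in later round spermatids 2, in elongating spermatids 9 and in the spermatogonia and late spermatocytes 0. The respective shares of all genes were 2.34%, 3.53%, 5.86%, 4.36%, 2.81%, 2.45% and 1.51%. By smallest p these were led by Mrpl14 in early prophase (log2 change 0.69 ± 0.28), Mrps12 in pachytene spermatocytes (-0.36 ± 0.13), Mrpl28 in early round spermatids (-0.60 ± 0.19), Mrpl2 in later round spermatids (-0.36 ± 0.14) and Mrps33 in elongating spermatids (1.69 ± 0.53). In spermatogonia the smallest p was that of Mrpl54 (-0.39 ± 0.19) and in late spermatocytes that of Mrps11 (-0.31 ± 0.15). The smallest of their adjusted p-values by edgeR was 0.785. Without HFD replicate 1 the change of Mrpl14 was 0.36, that of Mrpl54 -0.63 and that of Mrps11 -0.52, and without HFD replicate 2 that of Mrps11 was -0.19 and that of Mrps33 1.03.

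Mrpl28 in early round spermatids had 38.0, 29.1 and 30.2 CPM under HFD and 44.5, 47.1 and 52.8 CPM under LFD, without overlap (edgeR adjusted p = 0.785). It was called when HFD replicate 1 was left out, with a log2 change of -0.76. With that library left out, 6 of 72 members were called lower and none higher in early round spermatids, beside 4.24% of 9358 genes lower and 1.14% higher. In later round spermatids 3 of 78 were called lower and none higher, beside 1.55% of 14648 genes lower and 0.116% higher. Mrps12 in pachytene spermatocytes had 33.2, 38.7 and 32.1 CPM under HFD and 41.8, 46.1 and 44.4 CPM under LFD, also without overlap (edgeR adjusted p = 0.935). In pachytene spermatocytes the diets did not overlap for 14 of 78 members, beside 9.57% of all genes, and in early round spermatids for 12 of 70, beside 11.2%. In spermatogonia this held for 8 members (7.79% of all genes), in early prophase for 7 (7.87%), in late spermatocytes for 7 (7.31%), in later round spermatids for 7 (8.53%) and in elongating spermatids for 5 (3.99%).

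**Figure D5:**
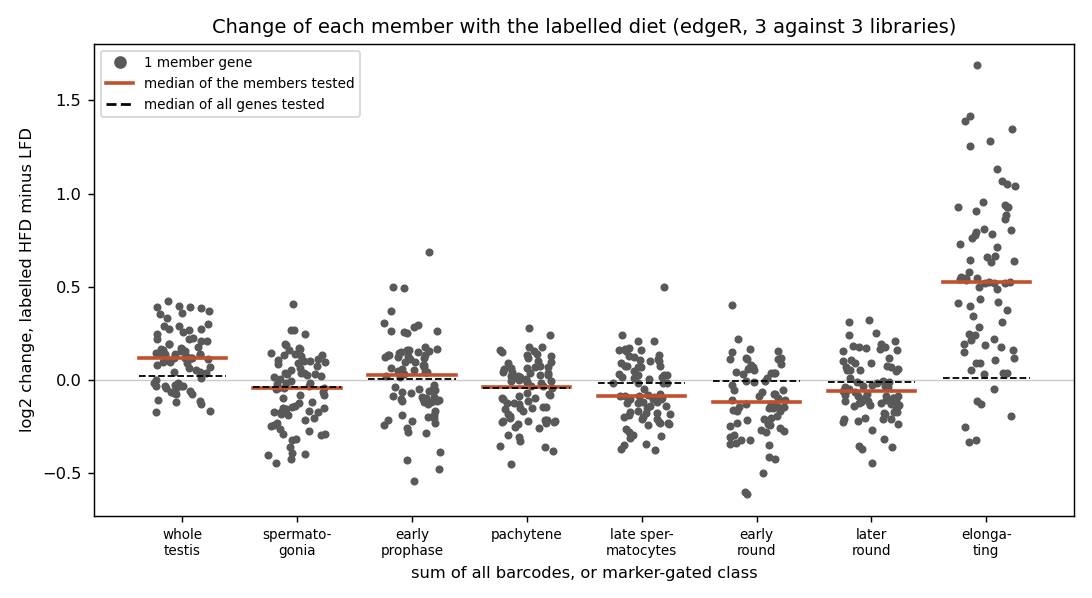
Log2 change of each member between the libraries labelled HFD and LFD (edgeR, y axis) in the whole testis and 7 germ line classes (x axis); each point is 1 gene, the red line the median of the members tested and the dashed line the median of all genes tested. The medians lie between -0.12 and 0.12 except in elongating spermatids, where the members' median is 0.53 and HFD replicate 2 stands apart from the other libraries.

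Elongating spermatids gave the largest values and rested on 1 library. The members summed to 2645, 5547 and 3089 CPM under HFD and to 2453, 2869 and 2707 CPM under LFD, so the diets overlapped. Of 76 members tested, 69 had a positive change, with a median of 0.53 against 0.01 over all genes. Without HFD replicate 2, the library with shallow elongating-gated barcodes and higher spermatocyte markers described above, the median was 0.12, with 57 of 76 positive. The mean difference in summed CPM was 1083 with all libraries and 190 without that one, and it was 191 between the replicate 1 libraries. Mrps33 had 6.32, 39.0 and 15.6 CPM under HFD and 3.16, 8.47 and 3.14 CPM under LFD. The diets overlapped and the edgeR adjusted p was 0.919.

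The changes between stages were tested for a difference between the diets as an interaction with the library as a block. No member was called in any of the 3 germ line contrasts by edgeR (0.0% of 12829, 11145 and 11056 genes). The smallest unadjusted p of a member was 0.0226 for Mrpl45 into pachytene spermatocytes, 0.0446 for Mrpl28 into early round spermatids and 0.0197 for Mrpl28 into elongating spermatids, with edgeR adjusted p-values of 0.892, 0.808 and 0.949. At an unadjusted p under 0.05 stood 4, 1 and 3 members, beside 4.01%, 5.96% and 2.54% of the genes tested.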

How the data were processed

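The authors aligned the reads to mm10 with Cell Ranger 6.0.1 and deposited raw UMI counts per gene and barcode for the barcodes that Cell Ranger called as cells. The kit version differs between the labels and the methods, so which chemistry was used is not certain. Cell type calls and test results of the authors were not used here.

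The genes, marker lists and list of other translation genes were chosen with earlier results of these data known. Barcodes with at least 3000 UMIs were scored as the mean z-score (capped at 4) of log CP10K over a class's gating markers. A class needed a score of at least 0.75, a lead of 0.35 over the next class and 3 detected markers. The marker Brme1 was not found under this symbol. No doublets were removed. As an alternative, the 3356 highest Scrublet scores (0.8% per 1000 barcodes) were left out. UMIs were summed per library and class with at least 20 barcodes and tested in edgeR 4.0.16 (R 4.3.3; TMM, default count filter, two-sided, Benjamini-Hochberg adjustment), with DESeq2 1.42.0 as an alternative, after a run on simulated counts. Stage contrasts had the library as a block and diet contrasts had none. Scores over all members were not tested. Named in each stage contrast were up to 6 members with the largest rise and 6 with the largest fall among those called and changed the same way in every library on the TMM scale. Also named were the 3 most and least abundant members, Mrps18a, Mrps18b, Mrps18c, Mrps30 and Mrps36, and for diet the 3 smallest p-values in the whole testis and the smallest in each class. Coordinates are from RefSeq (GRCm38.p6) and GENCODE vM21.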

Additional observations from a re-analysis of the deposited data

Results flagged for a closer look

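The values of 115 groups of libraries were screened for 1 library far from the others, by Dixon's criterion, and 13 were found, where chance finds about 1 group in 20. Of the 13, 8 were HFD replicate 2 in elongating spermatids, always as the highest library. Its summed CPM was 5547 (the others 2453 to 3089), and single members stood at 122 CPM for Mrpl39 (22.5 to 38.9), 66.5 CPM for Mrps11 (9.65 to 23.6), 39.7 CPM for Mrps31 (4.87 to 13.7), 36.4 CPM for Mrps12 (6.75 to 12.6), 12.9 CPM for Mrps7 (3.07 to 6.69), 12.7 CPM for Mrps24 (3.53 to 6.69) and 6.06 CPM for Mrpl50 (0.785 to 1.41). The depth and marker levels of that library are given with the summed CPM above, and their part was not tested.

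The other 5 were single genes. In early round spermatids HFD replicate 3 was highest for Mrpl47 (127 CPM, the others 104 to 111) and Mrpl18 (191 CPM, the others 144 to 156), HFD replicate 2 lowest for Mrps9 (34.8 CPM, the others 48.6 to 53.4) and LFD replicate 2 highest for Mrpl45 (21.5 CPM, the others 5.72 to 11.5). In pachytene spermatocytes LFD replicate 3 was lowest for Mrpl49 (8.03 CPM, the others 13.0 to 15.0).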

How the results depend on the processing

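Alternatives were another tool (DESeq2), no TMM, no filter, a UMI minimum of 6000, Scrublet, 1 diet, leaving out libraries, other denominators and other counts of the ratio. None of the log2 changes of members named for the largest rises and falls of a stage contrast, or for the smallest p for diet, turned its sign. The changes of Mrps18b into pachytene spermatocytes and of Mrpl54 into elongating spermatids, given above, were positive under TMM and slightly negative under total UMI scaling. With 1 library left out, the HFD minus LFD difference in summed CPM had either sign in spermatogonia (-733.6 to 116.9), early prophase (-508.5 to 376.2), pachytene (-355.7 to 214.7) and late spermatocytes (-370.5 to 73.6) and later round spermatids (-64.7 to 96.2). Into elongating spermatids 5 members were higher and 59 lower without TMM, beside 22.6% and 66.2% of all genes. In the libraries labelled HFD 12 were higher and 16 lower, beside 3082 and 2855 of 10834 genes. Without both replicate 1 libraries 20 were lower, beside 3317 of 10001 genes. For Sertoli cells 4 members were higher by DESeq2, beside 3669 of 22900 genes, and 4 with no filter, beside 4192 of 22900. Without TMM 4 were higher, beside 28.9% of all genes, and without both replicate 1 libraries 3, beside 2009 of 11450. There 17 were lower in the libraries labelled LFD, beside 2966 of 11244 genes, and 4 without both replicate 1 libraries, beside 1857 of 11450 genes. With 1 library left out 17 to 37 were lower, and the counts of all genes at both ends are given with the contrast above. For diet, leaving out 1 library gave 0 to 6 members in early round and 0 to 3 in later round spermatids, the highest without HFD replicate 1. With mitochondrial mRNAs left out of the total, the value for "summed CPM, spermatogonia" was 9279.8, and as a mean over barcodes that for "summed CPM, pachytene spermatocytes" was 7594.1.

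By structural subunit the ratio was 2.02, 2.51, 3.21, 4.04, 3.98, 4.29 and 5.27 from spermatogonia to elongating spermatids, 2.54 in Sertoli cells and 3.39 in macrophages. With each gene scaled to its mean over classes it was 0.85, 0.93, 1.05, 1.22, 1.20, 1.11 and 0.88, then 0.89 and 1.14. With both changes, chosen after seeing the data, it was 0.79, 0.88, 1.04, 1.25, 1.24, 1.25 and 1.32, then 0.90 and 1.15.

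With the replicate number as a replicate block 0 members were called for diet in any class. It called 24 genes in the whole testis and 17 in pachytene spermatocytes. A batch term for the replicate 1 libraries called 0 members in the whole testis or in pachytene spermatocytes. Genes at an unadjusted p under 0.05 by edgeR went from 471 to 1285 and from 456 to 1116 there, with 6 members in each. The same-numbered libraries correlated at 0.49, 0.03 and 0.26, and HFD replicate 2 correlated best with LFD replicate 3 (0.30), so the numbers were not taken to pair the libraries. The 13 UMIs of Mrpl27 in early round spermatids show where depth limits single genes.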
